A study of Torulaspora delbrueckii with 17 samples.

Results

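Kos3 binding was compared between the orc1bah strain and wild type in the budding yeast Torulaspora delbrueckii, using the peaks of 4 chromatin immunoprecipitation sequencing (ChIP-seq) libraries. All peaks of the Kos3 lists from strain LRY3212, which carries orc1bah, and from strain LRY3211, which carries wild-type ORC1, were taken, 307 of the 5717 peaks in the series. The orc1bah group had 33 and 50 peaks in its first and second list, and wild type had 105 and 119. Per the labels, both strains carried Kos3 with a V5 tag and a MYC-tagged Orc1, which was orc1bah in LRY3212. Cells of both strains were grown in YPD and precipitated with a V5 antibody. All 4 lists were called against the same input library, Input2, made from strain JRY10156, which has no epitope tag per the labels and is neither of the precipitated strains. Per the series' design text the 2 libraries of a strain are technical replicates, and each group is 1 strain, so the SDs below are technical and do not cover differences between strains or cultures.

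Kos3 is a relative of Sir1, a protein that in Saccharomyces cerevisiae helps to bring the Sir silencing complex to the silencers of the silent mating-type loci. Orc1 is the largest subunit of the origin recognition complex, which marks replication origins and also binds silencers. Its BAH domain contacts nucleosomes, and in Saccharomyces cerevisiae it binds Sir1. The allele orc1bah is named for that domain. The comparison addresses where Kos3 stays on chromatin when the domain is altered.

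Kos3 peaks in orc1bah were fewer and covered much less of the genome than in wild type. The orc1bah lists held 41.5 ± 12.0 peaks and the wild-type lists 112 ± 9.90 (mean ± SD, n = 2 each), a ratio of 0.371. Peaks covered 15.4 and 22.2 kb in the orc1bah libraries, against 78.8 and 98.2 kb in the wild-type libraries, a ratio of 0.212. Both orc1bah libraries lay below both wild-type libraries in each measure. The smallest p that an exact permutation test (two-sided) allows in this design is 0.333, and no p-value is attached to the comparisons. When all lists were restricted to peaks with a −log10 q of 10 or more, the length ratio was 0.136.

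The orc1bah lists held few long domains. The median peak width did not separate the groups, at 366 and 322 bp in orc1bah, against 306 and 375 bp in wild type. Peaks wider than 1000 bp numbered 3 in each orc1bah list, against 19 and 20 in the wild-type lists. The widest peak was 1580 and 1672 bp in orc1bah, against 6473 and 6528 bp in wild type. The fold enrichment of a peak is the authors' own value, a ratio over background. Folds of different lists are given side by side as deposited, without rescaling for depth, which is unknown. The highest fold was 4.68 and 5.53 in the orc1bah lists and 19.5 and 21.2 in the wild-type lists, while the median fold was 2.26 and 2.29 in orc1bah and 2.31 and 2.35 in wild type.

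The libraries of the groups separated in the outer parts of the chromosomes and, with all peaks counted, not in the interior. Within 20 kb of an end, Kos3 peaks covered 8.21 and 11.9 kb in orc1bah, against 50.2 and 63.7 kb in wild type, a ratio of 0.177. Between 20 and 100 kb from an end the lengths were 4.40 and 6.06 kb in orc1bah, against 24.6 and 29.0 kb in wild type, a ratio of 0.195. More than 100 kb from the ends they were 2.79 and 4.20 kb in orc1bah, against 4.07 and 5.50 kb in wild type. There the libraries of the groups overlapped. The orc1bah lengths there include 1939 and 972 bp of peaks within 3 kb of ORC1, where the wild-type lists held 0 peaks. Without those peaks both orc1bah libraries fall below both wild-type libraries in the interior too. The share of peaks near an end also overlapped between the groups, at 57.6% and 48.0% in orc1bah and 56.2% and 61.3% in wild type. With only peaks of a −log10 q of 10 or more, the length ratio within 20 kb of an end was 0.0891. On 7 of the 8 chromosomes both orc1bah lists held fewer peaks than both wild-type lists. The exception was chromosome 4, with 12 and 17 peaks in orc1bah and 14 and 8 in wild type, although its covered length was lower in orc1bah, at 5.15 and 6.92 kb, than in wild type, at 10.6 and 11.4 kb.

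**Figure D1:**
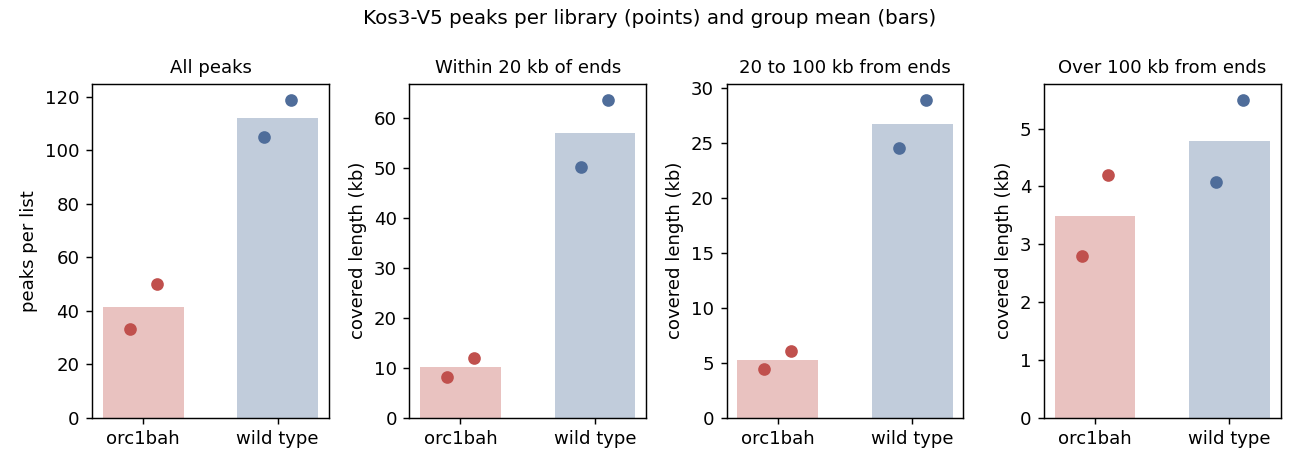
Peaks per Kos3 list and covered length in kb at 3 distances from the chromosome ends, for orc1bah and wild type. Points are the 2 libraries of a group and bars their mean. The groups separate everywhere except over 100 kb from the ends. There the orc1bah libraries, with their peaks near ORC1, reach 4.20 kb and the wild-type libraries start at 4.07 kb.

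Wild-type binding was summarised as the 62 regions found in both wild-type lists, peaks being joined if they shared at least 1 bp. Of these, 19 were found in both orc1bah lists, 5 in 1 of them and 38 in neither, so that the share missing from both was 61.3% and the share found in both was 30.6%. Per library, 34.7% ± 3.42 of the regions were found in orc1bah (n = 2). The share rests on which wild-type peaks are counted. It was 18.9% of all peaks of the second wild-type list alone, 22.4% of all peaks of the first alone, and 67.3% when the same number of peaks was taken from each list. In length, orc1bah peaks covered 22.7% ± 5.64 of the bases that both wild-type lists covered.

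Most of the strongest wild-type regions were found in orc1bah. Of the 10 regions of highest mean wild-type fold, 9 were found in both orc1bah lists and 1 in a single list. Of the 15 regions whose −log10 q reached 50 in both wild-type lists, 13 were in both orc1bah lists, 2 in 1 list and 0 in neither. Of the 19 regions whose lower wild-type −log10 q was under 5, 18 were in neither. The median of the mean wild-type fold was 7.97 for regions in both orc1bah lists, 3.88 for those in 1 list and 2.41 for those in neither. The median region width fell likewise, at 2430, 2037 and 567.5 bp. A region counts as found from 1 bp of overlap, which favours wide regions, and strength was not separated from width. The depth of the libraries is unknown, and peak lists do not tell a lost peak from one that fell below the threshold.

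**Figure D2:**
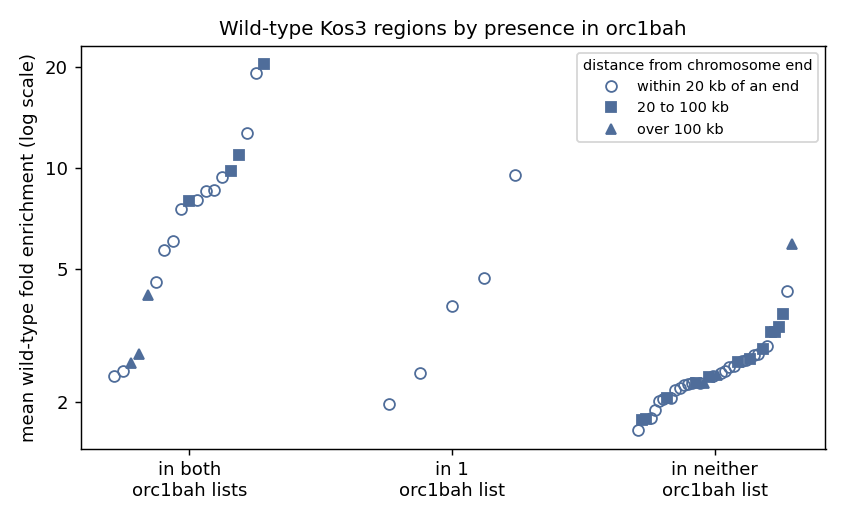
Mean wild-type fold enrichment, on a log scale, of the 62 wild-type Kos3 regions, split by whether they were found in both, in 1 or in neither orc1bah list. Each symbol is 1 region and its shape gives the distance from a chromosome end; regions in both lists have a median of 7.97 and regions in neither a median of 2.41.

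Where a peak stayed, it was mostly a short remnant around the wild-type summit. In the 19 regions found in both orc1bah lists, orc1bah peaks covered 12.6 and 17.5 kb, against 45.2 and 48.8 kb in wild type. The ratio of covered length per region had a median of 0.326 and ran from 0.146 to 0.956, and in 16 regions both orc1bah libraries covered less than both wild-type libraries. The summit of the most significant orc1bah peak lay within 200 bp of the mean wild-type summit in 14 of the 19 regions, taking the orc1bah library farther away. Its median distance was 80 bp, where the 2 wild-type summits differed by a median of 27 bp. The number of regions holding more than 1 peak did not separate the groups, at 5 and 7 in orc1bah and 8 and 0 in wild type.

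The strongest wild-type region, on chromosome 5 at 72931 to 76639, covered a tRNA gene and TDEL0E00330 and had its summits between them. Its covered length was 604 and 885 bp in orc1bah, against 3521 and 3671 bp in wild type. The fold was 3.37 and 5.37 in the orc1bah lists and 19.5 and 21.2 in the wild-type lists. The remnant lay at the wild-type summit, with orc1bah summits at 75220 and 75053 and wild-type summits at 75152 and 75116. The flanking regions disappeared from both orc1bah lists. They lay at 70827 to 72189 and at 72386 to 72906 on the left, and at 77919 to 78461 and 78494 to 79495 on the right, the last pair with summits between TDEL0E00340 and SIR1. The gene annotated SIR1 belongs to the Sir1 family to which Kos3 is related. The gene table used here names no KOS gene, so whether SIR1 is the tagged locus is not given in the sources used here. Taking SIR1 with 5 kb on either side, orc1bah peaks covered 604 and 885 bp and wild-type peaks 3381 and 4208 bp.

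Another domain on chromosome 5, at 49613 to 56145 between TDEL0E00260 and TDEL0E00270, was the longest in wild type. It kept 2609 and 3005 bp in orc1bah, against 6473 and 6528 bp in wild type. Its orc1bah folds were 4.64 and 5.14, and its wild-type folds 7.57 and 8.37. The orc1bah libraries held 2 and 5 separate peaks there, where each wild-type library held 1. Their main summits, at 51359 and 51361, lay together, 506.5 bp from the mean wild-type summit. The neighbour at 58077 to 59099, with wild-type folds of 3.28 and 3.18, was in neither orc1bah list.

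At the silent mating-type locus HML, which holds HMLALPHA2 and HMLALPHA1, silent copies of the alpha mating-type genes, peaks were fewer and shorter in orc1bah. With 5 kb on either side of these genes, the orc1bah lists held 1 and 2 peaks and the wild-type lists 8 and 6. The one site found in both orc1bah lists was the region at 1275565 to 1278494 on chromosome 3, between HMLALPHA1 and TDEL0C07020. It was covered over 434 and 666 bp in orc1bah and over 2337 and 2884 bp in wild type. The orc1bah summits, 1276090 and 1276069, and the wild-type summits, 1276094 and 1276067, were nearly the same bases. The region over the genes themselves, at 1273223 to 1275259, was absent from the first orc1bah list and covered 312 bp in the second, at a fold of 2.40, against 1549 and 2037 bp in wild type. The regions on the far side at 1278634 to 1279330 and 1280100 to 1280533, and those at 1269436 to 1270758 and 1271476 to 1271977 near TDEL0C06990, were in neither orc1bah list. No other mating-type gene is named in the gene table used here.

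Other strong domains away from the outermost 20 kb were also covered over a shorter length. The region at 1192143 to 1195738 on chromosome 4, with its summit in FRE4, a gene for a ferric reductase, was covered over 750 and 1402 bp in orc1bah and over 2950 and 3594 bp in wild type. It held 2 and 3 separate peaks in orc1bah and 3 and 1 in wild type. The region at 34411 to 37776 on chromosome 7, between a tRNA gene and TDEL0G00190, was covered over 435 and 765 bp in orc1bah and over 2372 and 3007 bp in wild type. Summits within 1 kb of a tRNA gene were about as many in each list, 4 and 6 in orc1bah and 5 and 6 in wild type, and so a larger share of the short orc1bah lists, 12.1% and 12.0% against 4.76% and 5.04%.

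**Figure D3:**
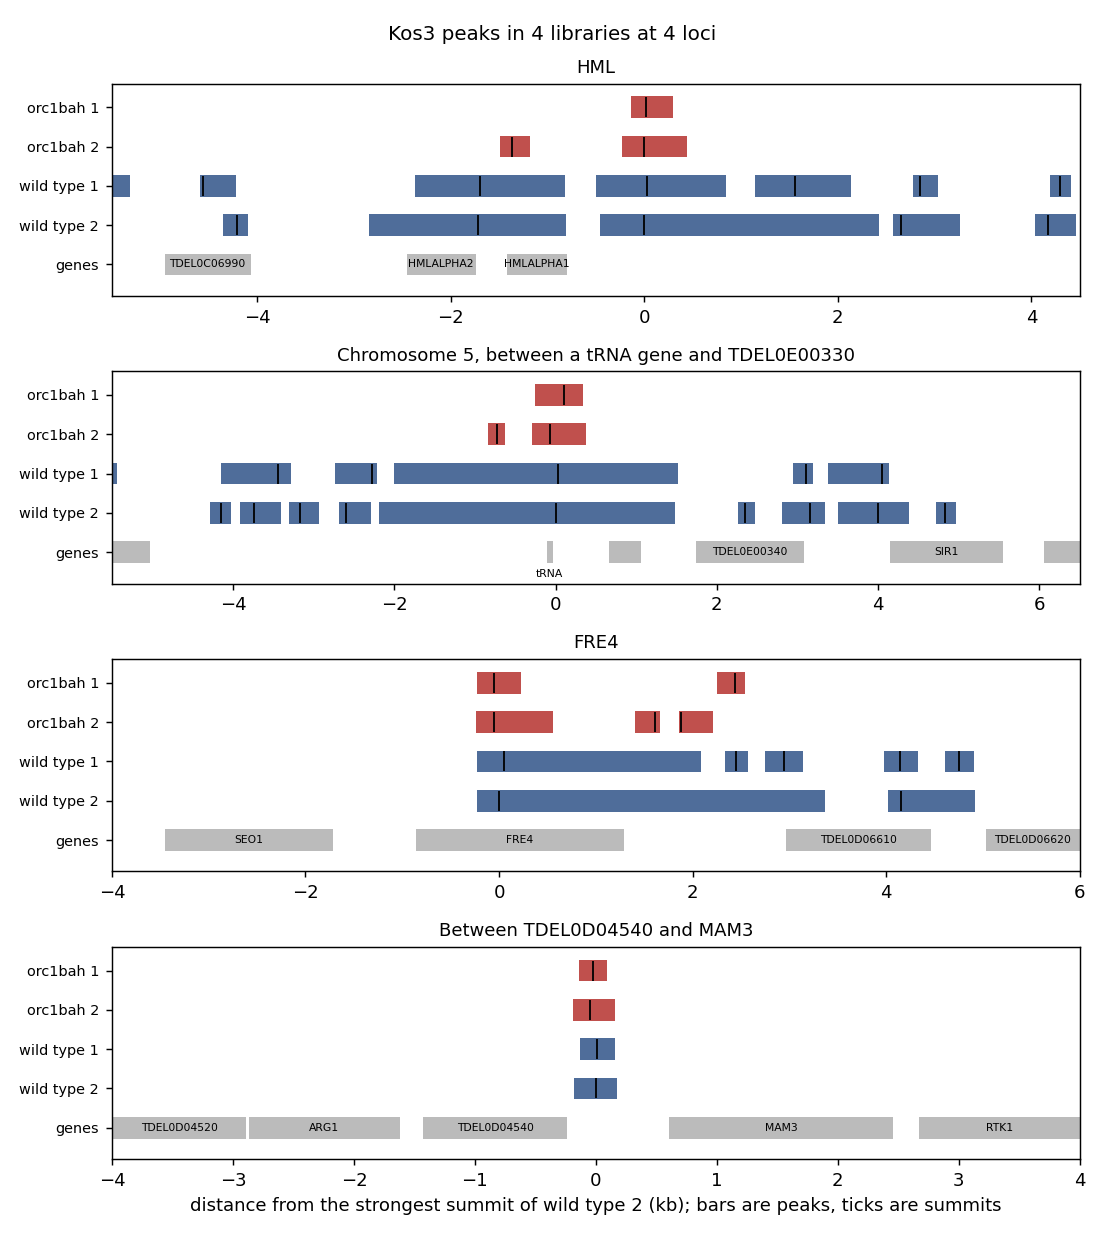
Kos3 peaks (bars) with their summits (black ticks) in the 2 orc1bah and 2 wild-type libraries at 4 loci, with annotated genes in grey; the horizontal axis is the distance in kb from the strongest summit of the second wild-type library. Remnants of 434 and 666 bp sit on the wild-type summit at HML. Beside MAM3 the peaks cover 237 and 341 bp of the region in orc1bah and 295 and 357 bp in wild type.

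Less of the outermost 20 kb was covered in orc1bah at almost every chromosome end that wild-type Kos3 occupied. Of the 16 ends, 14 had a wild-type peak within 20 kb in both lists, and at all 14 both orc1bah libraries covered less than both wild-type libraries. A peak remained in both orc1bah lists at 10 ends and in 1 list at 3. The left end of chromosome 6 had none in orc1bah, against 0.492 and 2.00 kb in wild type. The left end of chromosome 3 had 0.200 kb in a single wild-type list, and the right end of chromosome 7 had no Kos3 peak in any of the 4 lists.

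The remainder differed from end to end. The right end of chromosome 4 had the highest ratio, 0.549, with 1.42 and 1.77 kb in orc1bah against 3.10 and 2.71 kb in wild type. The terminal region there, at 1215392 to 1218162, had orc1bah folds of 4.35 and 5.01 and wild-type folds of 8.49 and 7.56. The right end of chromosome 1 had the lowest ratio among ends with a peak in any orc1bah list, 0.0332, with 0 and 0.374 kb in orc1bah against 4.93 and 6.35 kb in wild type. Its terminal region at 1413531 to 1418118 was the one region among the 10 strongest that the first orc1bah list lacked. The left end of chromosome 7 had 1.55 and 2.82 kb in orc1bah, in 4 and 5 peaks, against 7.39 and 7.40 kb in 6 and 4 peaks in wild type.

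At the left end of chromosome 2, the second strongest wild-type region, at 2390 to 7863 between TDEL0B00100 and TDEL0B00110, was covered over 834 and 880 bp in orc1bah and over 5209 and 5059 bp in wild type. The outermost region at 17 to 816, with wild-type folds of 3.45 and 5.11, was in neither orc1bah list. The outermost region of chromosome 1, at 1 to 1122, stood apart in length only, keeping 766 and 858 bp in orc1bah, against 1103 and 1122 bp in wild type. Its folds were 2.13 and 2.18 in orc1bah, against 5.42 and 5.99 in wild type. Near the right end of chromosome 6, the region from a tRNA gene to the end at 1067136 to 1070637 was absent from the first orc1bah list and covered 297 bp in the second, against 3388 and 3502 bp in wild type. At the right end of chromosome 8 the regions at 830943 to 832440, at 832870 to 833987 and at 823620 to 825380, in TDEL0H04530, overlapped a peak in each orc1bah list. In the last of these the second orc1bah list overlapped by 51 bp only, and its summit, at 823572, lay outside the region. Across these 3 regions the covered length per library ran from 51 to 513 bp in orc1bah and from 1001 to 1620 bp in wild type.

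The remaining regions near ends that both orc1bah lists held were also shortened. The outermost region of chromosome 4, at 1 to 2430, was covered over 273 and 1184 bp in orc1bah and over 2198 and 2430 bp in wild type, and that of chromosome 8, at 1 to 1482, over 247 and 310 bp in orc1bah and over 1482 and 1398 bp in wild type. At the right ends, the region of chromosome 2 at 1352789 to 1354397 was covered over 564 and 693 bp in orc1bah and over 1337 and 1489 bp in wild type. The region of chromosome 5 at 1083672 to 1086929, over 366 and 539 bp in orc1bah, against 3017 and 3174 bp in wild type, had the lowest ratio of all 19, at 0.146. Its orc1bah summits, at 1085142 and 1085099, lay away from its wild-type summits, at 1086315 and 1086263. Its summit distance of 1190 bp was the largest of the 19.

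**Figure D4:**
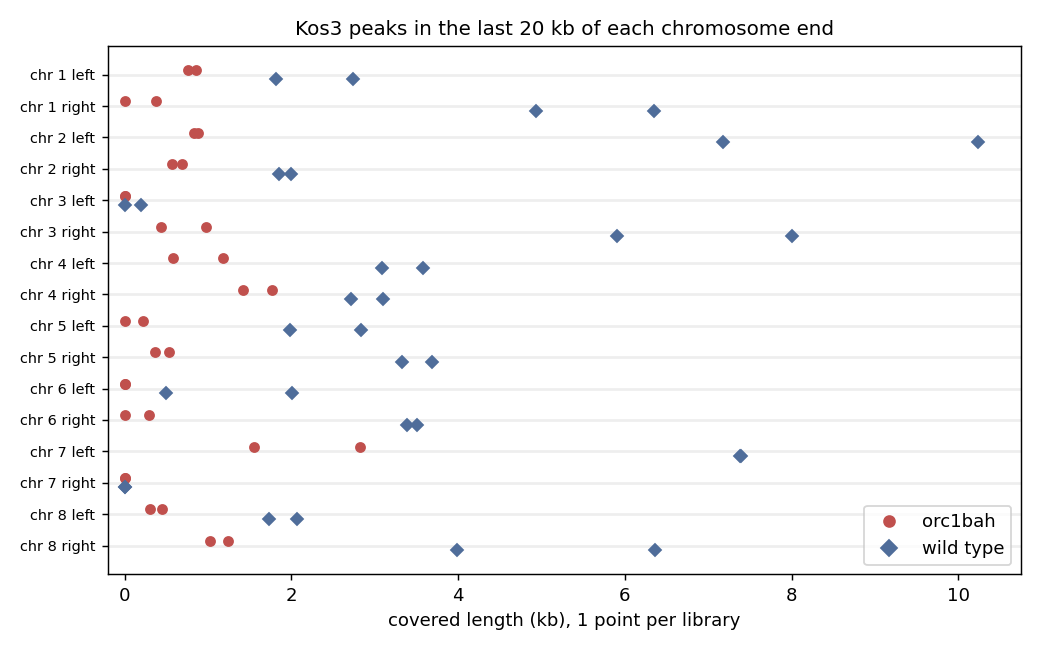
Length in kb under Kos3 peaks in the last 20 kb of each chromosome end, 1 point per library, for orc1bah (circles) and wild type (diamonds). At 14 ends both circles lie left of both diamonds; the left end of chromosome 3 and the right end of chromosome 7 had little or no wild-type peak.

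In 3 narrow interior sites the covered lengths of the groups overlapped. They were the regions in both orc1bah lists whose wild-type span was under 500 bp, and each was more than 100 kb from an end. Between TDEL0D04540 and MAM3 on chromosome 4, at 832971 to 833327, orc1bah peaks covered 237 and 341 bp of the region and wild-type peaks 295 and 357 bp. The −log10 q there was 11.5 and 53.0 in the orc1bah lists and 35.2 and 57.9 in the wild-type lists, with folds of 2.45 and 4.36 in orc1bah and 3.67 and 4.71 in wild type. MAM3 encodes a vacuolar membrane protein in Saccharomyces cerevisiae.

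Between TDEL0F02020 and TDEL0F02030 on chromosome 6, at 369701 to 369995, the length was 204 and 292 bp in orc1bah, against 224 and 295 bp in wild type. The orc1bah folds were 2.54 and 3.73 and the wild-type folds 2.34 and 2.88. Between CAR2, the gene for ornithine aminotransferase, and DIF1 on chromosome 4, at 186474 to 186774, it was 212 and 295 bp in orc1bah, against 285 and 301 bp in wild type. The folds beside CAR2 were lower in both orc1bah libraries, at 2.13 and 2.32, than in wild type, at 2.79 and 2.77. The −log10 q there was 5.94 and 9.71 in orc1bah and 17.6 and 17.3 in wild type. The ratio of covered length was 0.887 beside MAM3, 0.956 beside TDEL0F02020 and 0.865 beside CAR2. In the 16 longer regions found in both orc1bah lists the ratio ran from 0.146 to 0.730 with a median of 0.269. The shortest peak in each of the 4 lists was 200 bp, so a narrow site found in orc1bah had little room for a low ratio. The difference in ratio between narrow and long regions therefore does not show that Kos3 was kept differently. The sites beside MAM3 and TDEL0F02020 overlapped no Orc1 peak in any of the 9 Orc1 lists of the series, whereas the site beside CAR2 overlapped one in both orc1bah Orc1 lists and in the wild-type Orc1 list of the same strain.

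**Figure D5:**
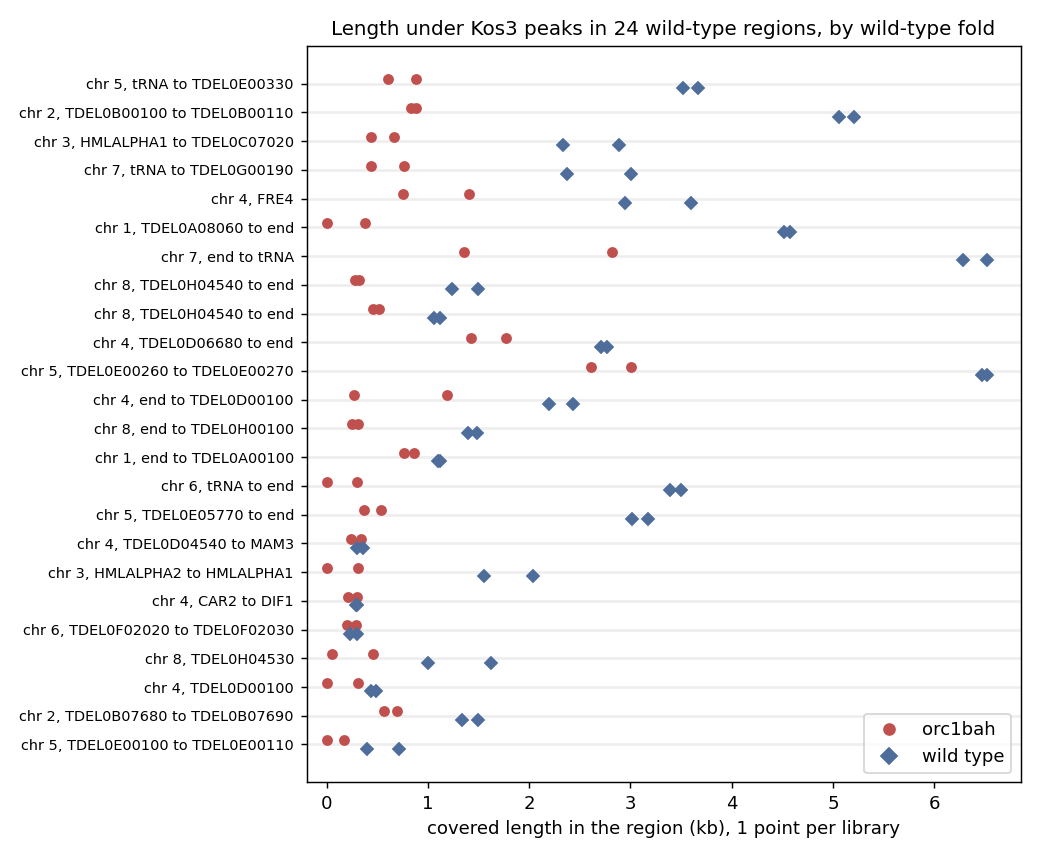
Covered length in kb within the 24 wild-type Kos3 regions found in at least 1 orc1bah list, ordered from the top by mean wild-type fold, 1 point per library. Circles (orc1bah) lie far left of diamonds (wild type) at long domains and overlap them at the regions beside MAM3, CAR2 and TDEL0F02020.

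Of the 38 regions in neither orc1bah list, 23 lay within 20 kb of an end, 12 between 20 and 100 kb and 3 farther inside. Their background is the 61.3% of all 62 regions that were missing, and 40, 16 and 6 regions of the 62 lay at these distances. The strongest of them lay in SLA2 on chromosome 3, at 1050825 to 1051656. SLA2 encodes an actin-binding protein of endocytosis. Wild-type peaks there covered 810 and 767 bp with folds of 4.90 and 6.98 and a −log10 q of 36.6 and 70.2, above those of several regions that orc1bah kept. Its neighbour between TDEL0C05800 and TDEL0C05810, at 1048505 to 1048799, with folds of 2.28 and 2.29, was missing as well. The third interior one lay between UBA2 and IDH2 on chromosome 1, at 598999 to 599501, where the wild-type folds were 2.05 and 2.78.

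The rest of the 10 strongest missing regions lay nearer the ends. Besides those at SLA2, at the left end of chromosome 2 and on chromosome 5 around the strongest region and at 58077, they were on chromosome 8 at 827568 to 828207, with wild-type folds of 2.28 and 3.58, on chromosome 7 in TDEL0G00200 at 37867 to 38468, with 2.84 and 2.93, on chromosome 4 in TDEL0D00100 at 2647 to 3367, with 2.15 and 3.44, and on chromosome 3 beside TDEL0C07040 at 1290565 to 1291102, with 2.80 and 2.75. In the ribosomal DNA on chromosome 8, with 5 kb on either side, the orc1bah lists held 0 peaks and the wild-type lists 3 and 5. The 2 wild-type regions there covered the 5S genes, at 792644 to 793285 and 801352 to 802001. Their folds, 1.71 and 1.86 and 1.64 and 1.90, were among the lowest of all. Their −log10 q was not low, at 23.9 and 33.5 and at 20.2 and 35.3. Within 5 kb of SIR2 and of SIR4, genes of the silencing machinery, none of the 4 Kos3 lists held a peak.

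Most orc1bah peaks lay where Kos3 was found in wild type. Of the peaks in an orc1bah list, 76.4% ± 3.39 overlapped a peak in both wild-type lists (n = 2). With summits required to lie within 200 bp it was 39.2%. Of 24 regions found in both orc1bah lists, 2 were in neither wild-type list, which is 8.33%. A total of 12 orc1bah regions lay outside all wild-type Kos3 peaks, 2 in both lists, 2 in the first list only and 8 in the second only. Every one was more than 100 kb from a chromosome end. Of all orc1bah peaks, 8 of 33 in the first list and 15 of 50 in the second lay that far inside. Most of the genome also lies that far inside, and the position of the 12 regions was not tested against it.

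A group of 3 of the 12 regions lay at ORC1 and beside it. The regions with summits in ECM7 and in ORC1 were in the first orc1bah list only. The region with its summit in TEM1 was in both. Within 3 kb of ORC1 on chromosome 4, orc1bah lists held 4 and 3 Kos3 peaks covering 1939 and 972 bp, against 0 peaks in each wild-type list. They ran from 164363 in ECM7 through ORC1 to 168219 in TEM1, a gene for a GTPase of mitotic exit, with folds from 2.20 to 2.88. ORC1 is the gene that differs between the strains. Orc1 peaks of the same orc1bah strain lay there too, 5 and 1 covering 1743 and 726 bp, and the Orc1 list of the wild-type strain LRY3211 had 0. The other wild-type Orc1 list, from strain LRY3204, held 3 peaks there covering 1222 bp, with folds from 1.98 to 2.68, and the kos3 list held 3 covering 3387 bp. The input library came from another strain, and the part of the altered ORC1 copy in these peaks was not tested. Without the peaks near ORC1, 84.2% of the orc1bah peaks overlapped a peak in both wild-type lists and the ratio of peak numbers was 0.339.

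The other region in both orc1bah lists and neither wild-type list lay between GLY1, the gene for threonine aldolase, and IES6, for a subunit of the INO80 chromatin remodeler, on chromosome 3 at 437358 to 437646. Its folds were 2.23 and 2.72 and its −log10 q 6.45 and 12.9, and it overlapped no Orc1 peak in the orc1bah strain. The 8 regions of the second list alone had folds from 2.08 to 2.54. Their highest folds were those between PYK2 and PUT4 on chromosome 8 at 698206 to 698423, between YAP1802 and PFK1 on chromosome 7 at 222729 to 222997, between TDH2 and MET3 on chromosome 5 at 892621 to 892909, and between TDEL0D01260 and SPO14 on chromosome 4 at 241582 to 241792. PYK2, PFK1 and TDH2 encode a pyruvate kinase, a phosphofructokinase subunit and a glyceraldehyde-3-phosphate dehydrogenase. These regions were seen in 1 of 2 technical replicates. Wild type had such peaks too, 26 of the first list and 53 of the second that the other wild-type list lacked.

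Orc1 regions were also joined over 2 wild-type and 2 orc1bah lists, but the wild-type Orc1 lists came from different strains, LRY3204 and LRY3211, whereas both wild-type Kos3 lists came from LRY3211. Of the 62 wild-type Kos3 regions, 61.3% were in neither orc1bah list and 30.6% in both, whereas of 235 regions in both wild-type Orc1 lists 9.36% were in neither orc1bah Orc1 list and 87.7% in both. This difference was not tested, and the precipitations differed in peak strength. An Orc1 peak in the wild-type list of the same strain, LRY3211, overlapped all 38 missing Kos3 regions and 60 of all 62. In the orc1bah Orc1 lists, 31 of the 38 missing regions overlapped no peak in either list, against 34 of all 62. Of the 19 regions found in both Kos3 lists of orc1bah, 17 overlapped an Orc1 peak in both, against 23 of all 62. For the orc1P179A allele, whose Kos3 lists are set against the same wild-type libraries, 52.8% of the 53 wild-type regions outside chromosome 8 were in neither list. For orc1bah 33 of the same 53 were in neither. The 2 orc1P179A lists came from different strains, LRY3215 and LRY3216, and held 1451 peaks, far more than the orc1bah lists, so the values are not directly comparable.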

How the data were processed

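Kos3 and Orc1 binding was measured by ChIP-seq in 15 precipitated and 2 input libraries. Bowtie2 2.3.4.1 and MACS2 2.2.7.1 are named in the submitters' processing notes, and the read filters and the threshold are not given in the sources used here. The deposited lists give for every peak its position and summit, its fold enrichment as a linear ratio over background, a −log10 p-value, a −log10 q-value and a score of 10 times the −log10 q. The input is named as in the authors' file names; the peak names carry another input number and the word subsample. Peak lists hold no read counts, so depth is unknown.

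Peaks were compared by overlap in Python 3.11.15, with 1-based coordinates as deposited. Regions were shared from 1 bp; 0 peaks of a list touched. Overlap counting was tested on simulated peak lists. Genes came from the RefSeq table of assembly ASM24337v1, with 5174 genes; its chromosomes were matched by order to those of the lists, and strong Orc1 summits lay outside genes in 68.75% to 87.3% of cases per chromosome with its own genes and in at most 40.5% with those of another. A region is described as in, beside or between genes by its summit, and a long region may also cover those genes. Chromosome ends were set at the outermost peak or gene. Named regions were those in both lists of both groups, the 10 strongest wild-type ones, the 10 strongest missing ones and those absent from wild type (all in both orc1bah lists, the 5 of highest fold in 1), with silencing, mating-type, ribosomal and tRNA loci. Members and lists were chosen with earlier results of these data known. As alternatives, a −log10 q of 5 or 10 was required, or equal numbers of peaks were taken, besides 50% overlap, summits within 200 bp, 10 and 40 kb around ends, chromosome 8 or 1 library left out, and replicate numbers as a block. Leaving out peaks near ORC1 and crossing the replicate numbers were added after seeing the data. No DNA sequence was used.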

Additional observations from a re-analysis of the deposited data

Results flagged for a closer look

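In the Orc1 lists, which the Kos3 comparison does not use, 2 libraries had more covered length around the ORC1 gene than either wild-type library. Within 3 kb of ORC1, Orc1 peaks covered 3387 bp in the kos3 library and 1743 bp in the first orc1bah library, against 1222 and 0 bp in the wild-type libraries of strains LRY3204 and LRY3211. The second orc1bah library had 726 bp, and the sir2 and orc1P179A libraries had 0 bp.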

How the results depend on the processing

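Peak lists without depth limit these results: a missing peak may be one below the threshold, and 2 technical replicates per strain give no p under 0.333. No alternative turned a direction. With a −log10 q of at least 10, the length ratio of orc1bah over wild type was 0.136 over the genome and 0.0891 near chromosome ends, orc1bah covered 14.9% of wild-type bases, and 85.8% of orc1bah peaks were found in wild type. With at least 5, 43.0% of wild-type regions were found in orc1bah. With the 33 most significant peaks of each list, the number ratio is 1.0 by construction, 67.3% of wild-type regions were found and 69.7% of orc1bah peaks lay in wild type. With summits within 200 bp these shares were 29.8% and 39.2%, and without peaks near ORC1 the share of orc1bah peaks in wild type was 84.2%. Leaving out 1 library gave 0.295 to 0.446 for the number ratio, 0.174 to 0.251 for the length ratio, 0.144 to 0.210 near ends, 18.9% to 37.1% for wild-type regions found, 16.2% to 26.7% for bases and 74.0% to 80.4% for orc1bah peaks in wild type. The replicate numbers name libraries of different strains and give no pairing; over 19 regions the deviations of log2 fold correlated at −0.15. With the number as a block the ratio of peak numbers was 0.363 and the share of regions found 20.1%, which counts all peaks of single wild-type lists; with crossed numbers, the values were 0.363 and 21.1%. The other alternatives stayed within 1 SD.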
